A study of Homo sapiens with 3 samples.

Results

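Gene expression was described in the shGFP library, which is 1 of the 3 RNA sequencing libraries of the study and was picked out by its label, the control hairpin. It came from NCI-H209, a human cell line established from a small cell lung cancer and named H209 in the labels. The cells had been infected with a lentiviral Tet-pLKO-puro plasmid carrying a short hairpin RNA against GFP, a gene that human cells do not have, so the hairpin has no intended target. The other libraries, sh490 and sh1362, came from H209 cells carrying the same plasmid with hairpins against YES1. Doxycycline at 1 µg/mL was given every 2 days to induce the hairpins, and this is described for the series as a whole, so all 3 libraries share the vector and the drug and no uninfected or untreated cells were measured. The labels do not say whether the infected cells were a pool or 1 clone, whether the libraries came from separate cultures, or how long the hairpins were induced before harvest. Here sh490 and sh1362 serve to show whether a level seen in shGFP was stable. With 1 library per hairpin there was no replicate and no test, and every interval below is an exact 95% interval of the read count. Since reads carried no molecular tags, these intervals, like the limits set by a count of 0, describe counting error alone. In bulk RNA, fewer cells that express a gene and less RNA per cell cannot be told apart.

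Small cell lung cancer resembles the neuroendocrine cells of the airway, which store peptide hormones in dense-core granules and release them on stimulation. Transcription factors such as NEUROD1, POU2F3 and YAP1 are commonly used to sort these tumours into classes. A peptide hormone is made as a longer precursor, cut by prohormone convertases, trimmed by carboxypeptidase E and often amidated at its end before release. Genes are compared below by TPM, a transcript share scaled alike in every library, in which each count is divided by the exonic length of the gene, and a gene is called expressed at 1 TPM or more.

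The shGFP library held 4899006 counts, against 7791747 in sh490 and 7421552 in sh1362. At least 1 read was counted for 21403 of 60609 genes in shGFP. Of 19905 protein-coding genes 13014, or 65.4%, were expressed in shGFP, 1720 reached 100 TPM and 3898, or 19.6%, had 0 counts in all 3 libraries. For a protein-coding gene of median exonic length, 1 TPM in shGFP corresponded to 5.47 counts, and a count of 0 allowed up to 3 counts or 0.612 CPM, the count scaled to the library total. Of the expressed protein-coding genes 10561, or 81.2%, stayed within a 2-fold range of CPM over the 3 libraries. That share rose with the level, from 54.2% at 1 to 5 TPM to 91.2% at 100 TPM or more. A low level in shGFP is therefore less firmly known than a high one. Every fold range of a gene given below is of CPM, with counts under 3 set to 3, and can differ from the ratio of the TPM values beside it. YES1, the targeted kinase, had 1465, 163 and 216 counts in shGFP, sh490 and sh1362, equal to 299, 20.9 and 29.1 CPM. The library labelled as the control was the highest in YES1, and both labelled with YES1 hairpins lay far below it. The shGFP library also stood apart from the others by its globin reads, which took 0.0723% of its counts against 0.00191% and 0.00203%, and these are described with the other blood transcripts near the end.

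The most abundant nuclear protein-coding transcript of the line was a hormone precursor. CALCA, which by alternative splicing encodes calcitonin or the neuropeptide CGRP, reached 10484 TPM in shGFP, 8454 in sh490 and 8303 in sh1362. In GRCh38 the gene spans chromosome 11, 14966668 to 14972354 on the minus strand, and its interval in shGFP was 10363 to 10606 TPM. CALCA ranked 1 of 19892 nuclear protein-coding genes in all 3 libraries. The counts do not tell its splice forms apart. PCSK1, the prohormone convertase that cuts many peptide precursors, came next at 5448 TPM in shGFP, 2981 in sh490 and 4824 in sh1362. CGA, the alpha subunit shared by the glycoprotein hormones, ranked 3 in shGFP with 4224 TPM in shGFP, 1966 in sh490 and 1257 in sh1362. Its level in shGFP lay far above both hairpin libraries, a 3.14-fold range, so the rank of CGA was not stable.

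Most other genes among the 20 highest nuclear protein-coding genes belonged to energy metabolism, protein folding and translation. They included GAPDH at 3654 TPM, the ATP synthase subunit ATP5F1B at 2651, the ferritin light chain FTL at 2579 and the chaperones HSP90AB1 at 3179.5, HSP90B1 at 2221 and HSP90AA1 at 1603. The endoplasmic reticulum chaperone CALR had 2081 TPM and SEC11C, a subunit of the signal peptidase that trims secreted proteins, 1905. ALDH1A1, a retinaldehyde dehydrogenase, reached 1908 TPM in shGFP, 1894 in sh490 and 1757 in sh1362, a stable level. Carboxypeptidase E (CPE) reached 1722, and RPS12, RPL27, RPL8, EEF2 and ACTG1 lay between 1460.2 (ACTG1) and 1765 (RPS12). HBB, the beta chain of adult haemoglobin, was also among these 20 with 1874 TPM in shGFP, 51.2 in sh490 and 51.8 in sh1362, and its place there held only in shGFP. The 10 highest of the nuclear protein-coding genes made up 5.29% of the nuclear protein-coding TPM of shGFP and the 100 highest 17.8%. Transcripts of the mitochondrial genome took 5.47% of all counts, and CALCA, PCSK1, CGA, CPE and SCG2 together 1.79%. By TPM the mitochondrial share was 21.0% in shGFP, 21.4% in sh490 and 27.1% in sh1362, which leaves less of the TPM total to nuclear genes in sh1362.

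**Figure D1:**
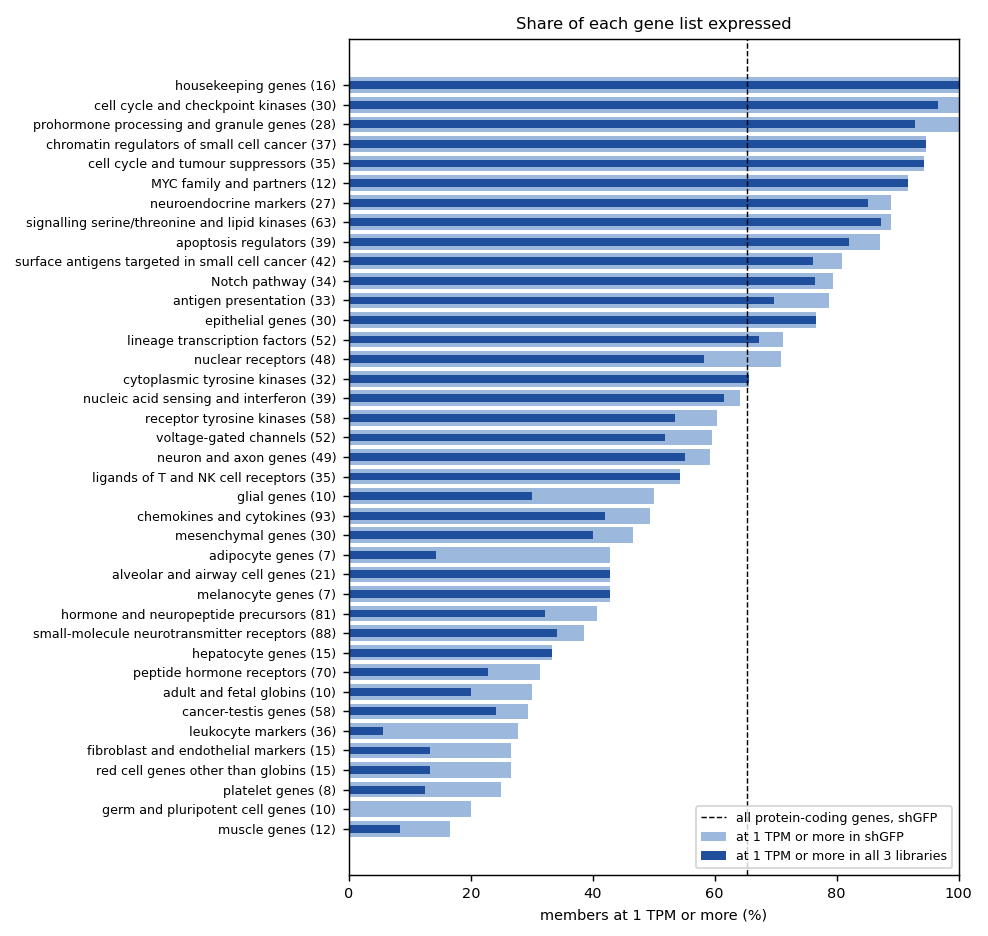
Share of the members of each of 39 gene lists at 1 TPM or more, in percent, with the number of members in brackets. Light bars show shGFP, dark bars the members at 1 TPM or more in all 3 libraries, and the dashed line the 65.4% of all protein-coding genes expressed in shGFP. Granule and cell cycle kinase lists were fully expressed, while lists of other cell types lay well left of the line.

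Few hormone genes were on, but some of those were very high. Of 81 hormone and neuropeptide precursors 33 were expressed in shGFP, 26 of them in all 3 libraries, and 38 had 0 counts in all 3. The share of 40.7% lay below the 65.4% of all protein-coding genes, while 6 members reached 100 TPM, and the median member was at 0. After CALCA and CGA came SST, which encodes somatostatin, an inhibitor of hormone release, at 398 TPM in shGFP, 352 in sh490 and 537 in sh1362. AGT, the angiotensin precursor, had 295 TPM in shGFP, 312 in sh490 and 436 in sh1362. GRP, the gastrin-releasing peptide long known as a product of small cell lung cancer, had 174, 321 and 210 counts and 158 TPM in shGFP, 183 in sh490 and 118 in sh1362. ADCYAP1, which encodes the neuropeptide PACAP, had 114 TPM in shGFP, 83.2 in sh490 and 66.7 in sh1362. SST, AGT, GRP and ADCYAP1 all stayed within a 2-fold range over the libraries.

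Several further peptides were expressed at lower levels. The growth-promoting bombesin-like peptide NMB had 39.03 TPM in shGFP, neurotensin (NTS) 26.2 and PTHLH, the parathyroid hormone-related protein that raises blood calcium in some cancers, 25.96. VGF, a granule protein cut into active peptides, was at 14.9 and VIP at 1.97 TPM with 4, 2 and 10 counts. TAC1, the substance P precursor, had 15, 12 and 2 counts in shGFP, sh490 and sh1362, a 7.57-fold range. The hormones behind classic endocrine syndromes of this cancer were not seen: POMC, the precursor of ACTH, and AVP, the antidiuretic hormone, had 0 counts in shGFP. For POMC this allows up to 1.53 TPM and for AVP up to 3.79. OXT and GAST were also at 0 there. The beta subunits that pair with CGA were at or near 0 as well, with 0 counts for CGB3, CGB5, CGB8, LHB, FSHB and TSHB in all 3 libraries and 4, 15 and 3 counts for CGB2. CGB genes and LHB are near-identical copies, and reads that align to several places were left out, so their levels are uncertain.

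**Figure D2:**
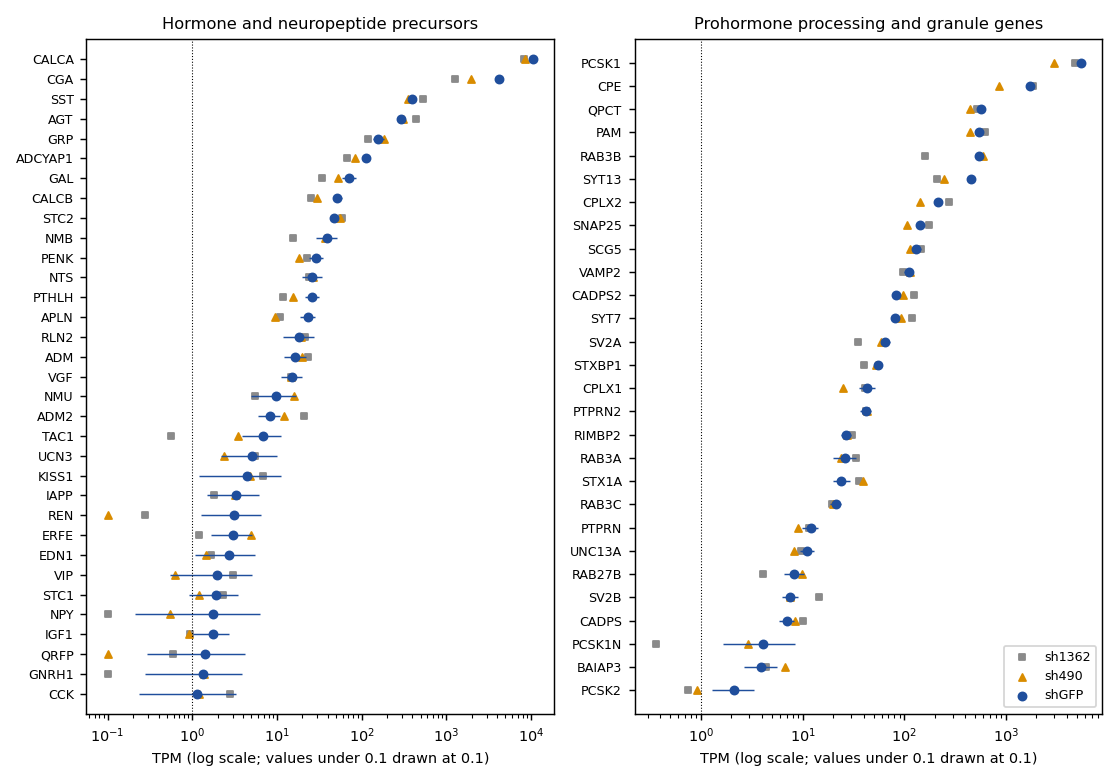
TPM on a log scale of the 33 hormone precursors at 1 TPM or more in shGFP (left) and the 28 prohormone processing and granule genes (right). Circles are shGFP with exact 95% counting intervals, triangles sh490 and squares sh1362. CALCA at 10484 TPM and CGA at 4224 stand above the other precursors, and CGA falls away in both hairpin libraries.

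The cyclic AMP response element, the binding motif of CREB factors, is a textbook feature of hormone gene promoters, so it was looked for in the RefSeq promoter windows of the genes of the hormone, granule and neuroendocrine lists (GRCh38.p14, 250 bases before to 50 after the transcript start). A gene was counted once if any of its windows held the letters TGACGTCA, which are the same on both strands. This held for 6 of the 62 matched expressed secretory list genes, 9.68%, namely CGA, CHGA, PCSK1, SLC18A2, SST and VGF. Of 84 such genes 62 were matched. By gene, the motif was found for 3.79% of 10577 matched expressed protein-coding genes and for 1.44% of 4729 below 1 TPM. Counted by single window instead, which is another measure, it was in 1.85% of all 35116. Among genes of the same 3 lists below 1 TPM, 1 of 39 matched genes held it, 2.56%, which was CARTPT. The difference between expressed and unexpressed list genes was not tested. CALCA was not among the genes found with these letters, and whether it was among the matched genes is not given here. The stretches around the motif are shown for 4 of these genes that the results turn on, with the motif in capitals. The stretch of CGA, at chr6:87095193-87095278 on the minus strand, holds the motif at 142 and again at 124 bases before the start.
CGA: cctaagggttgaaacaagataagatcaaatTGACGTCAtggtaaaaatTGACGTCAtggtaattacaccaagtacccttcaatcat
The stretch of SST lies at chr3:187670404-187670471 on the minus strand, with the motif 47 bases before the start.
SST: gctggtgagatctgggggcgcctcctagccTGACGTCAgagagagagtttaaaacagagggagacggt
That of PCSK1 lies at chr5:96433288-96433355 on the minus strand, with the motif 77 bases before the start.
PCSK1: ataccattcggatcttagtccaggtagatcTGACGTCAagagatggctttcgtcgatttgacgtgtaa
That of CHGA lies at chr14:92923066-92923133 on the plus strand, with the motif 54 bases before the start.
CHGA: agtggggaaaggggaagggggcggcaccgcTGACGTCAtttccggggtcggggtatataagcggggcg
A match of letters is a description of the window, and no binding was measured.

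Genes of the machinery that turns precursors into stored peptide were all transcribed. All 28 prohormone processing and granule genes were expressed in shGFP, 26 of them in all 3 libraries, with a median of 49.4 TPM against 6.50 over all protein-coding genes. After PCSK1 the highest were CPE at 1722 TPM in shGFP, 849 in sh490 and 1842 in sh1362, QPCT, which cyclises glutamine at the start of peptides, at 575 TPM in shGFP, 442 in sh490 and 518 in sh1362, and PAM, which amidates peptide ends, at 548 TPM in shGFP, 441 in sh490 and 627 in sh1362. The vesicle GTPase RAB3B had 544 TPM in shGFP, 595 in sh490 and 161 in sh1362 and the synaptotagmin SYT13 451 TPM in shGFP, 245 in sh490 and 209 in sh1362. RAB3B was thus far lower in sh1362 than in the other libraries. PCSK2, the other main neuroendocrine convertase, had only 2.11 TPM, with 19, 13 and 11 counts against 37310, 32536 and 53551 for PCSK1 in shGFP, sh490 and sh1362. Its inhibitor-like partner SCG5 had 131 TPM, and PCSK1N, which encodes the PCSK1 inhibitor proSAAS, 4.09. The release genes SNAP25, VAMP2 and STX1A were at 144, 111 and 24.1 TPM.

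The line was checked against its defining neuroendocrine markers, which were present. INSM1, a zinc finger factor of neuroendocrine differentiation, had 529, 1580 and 2716 counts in shGFP, sh490 and sh1362, or 145 TPM in shGFP, 273 in sh490 and 461 in sh1362. UCHL1, a ubiquitin hydrolase of neurons and endocrine cells, had 1005 TPM in shGFP, 1619.7 in sh490 and 1553 in sh1362, and CHGA, which encodes the granule protein chromogranin A, 35.2 TPM in shGFP, 32.3 in sh490 and 48.03 in sh1362. All 3 were expressed in every library, and both INSM1 and UCHL1 were lowest in shGFP. INSM1 spread over 3.39-fold. Of the 27 neuroendocrine markers 24 were expressed in shGFP, 88.9%, with a median of 46.3 TPM. The granins differed among themselves: SCG2 had 828 TPM, SCG3 211, CHGB 92.9 and CHGA 35.2. DDC, the decarboxylase of amine synthesis, was at 446, synaptophysin (SYP) at 141, secretagogin (SCGN) at 139, ENO2 at 151 and NCAM1, the adhesion molecule CD56, at 43.1. The amine transporter SLC18A2 was expressed at 35.6 TPM and SLC18A1 had 0 counts in all 3 libraries. TH, the first enzyme of catecholamine synthesis, had 0 counts in shGFP, and TPH1, that of serotonin, 51, 153 and 62 counts in shGFP, sh490 and sh1362.

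Lineage transcription factors spanned a wide range of levels. NEUROD1, a proneural factor used to class these tumours, had 670, 917 and 1519 counts in shGFP, sh490 and sh1362, or 158 TPM in shGFP, 136 in sh490 and 221 in sh1362, with an interval of 146 to 171 in shGFP. POU2F3, the tuft cell factor, had 0, 1 and 0 counts in shGFP, sh490 and sh1362, and ATOH1 2, 0 and 2. YAP1 had 7.93 TPM in shGFP, 5.06 in sh490 and 0.841 in sh1362, so that it was expressed in shGFP and sh490 and fell under 1 TPM in sh1362. REST, a repressor of neuronal genes, had 9.80 TPM in shGFP, 11.3 in sh490 and 4.35 in sh1362.

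Factors of lung and foregut and of neural progenitors were expressed beside NEUROD1. FOXA2 had 159.6 TPM, NKX2-1, the lung and thyroid factor, 50.4, SOX2 80.96 and ID2, an inhibitor of basic helix-loop-helix factors, 327. HES6, which is linked to neurogenesis, had 139.7 TPM. These 5 stayed within a 2-fold range. Factors of other lineages were at 0 in all 3 libraries, among them TP63 of squamous cells, GATA3, NEUROD2, SOX1, SPIB and GFI1B. The gut and liver factors HNF4A, at 12.1 TPM in shGFP, 16.99 in sh490 and 19.1 in sh1362, and CDX2, at 9.79 TPM in shGFP, 8.10 in sh490 and 6.17 in sh1362, which the list held as factors of other lineages, were expressed in every library. Of the 52 factors 37 were expressed in shGFP, 71.2%, close to the share of all protein-coding genes.

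**Figure D3:**
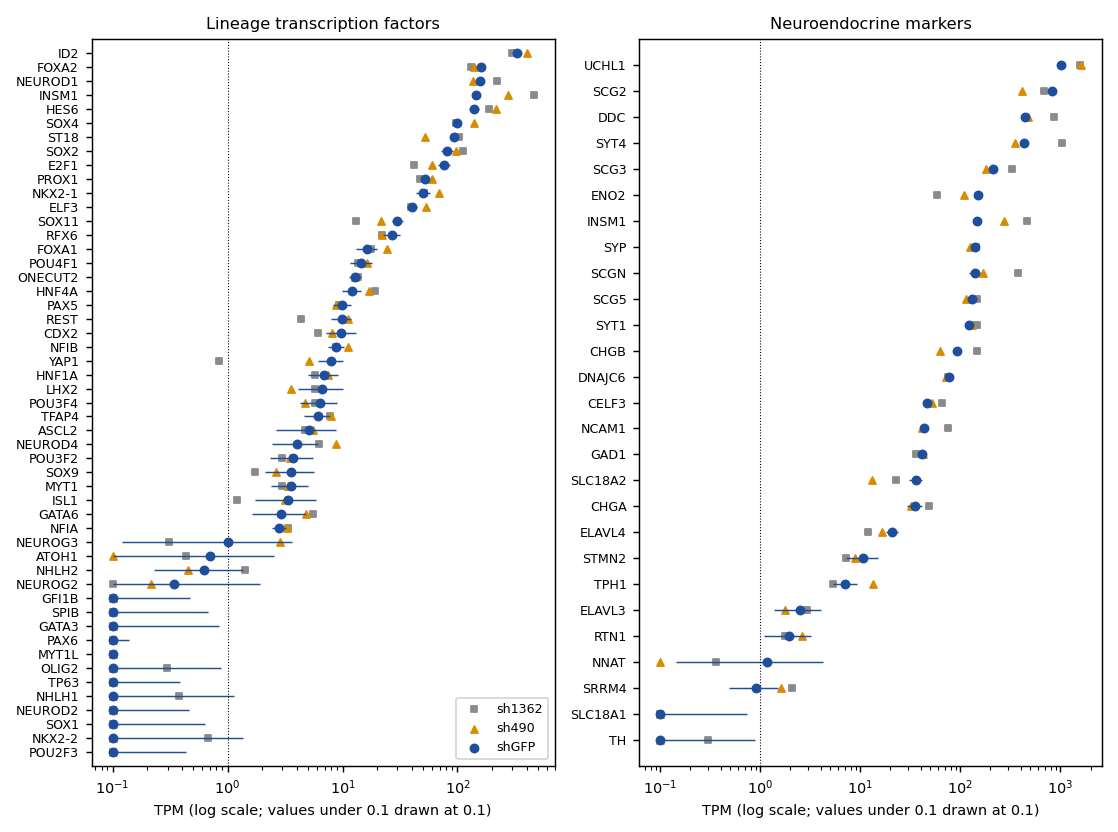
TPM on a log scale of lineage transcription factors (left) and neuroendocrine markers (right). Circles are shGFP with exact 95% counting intervals, triangles sh490 and squares sh1362, and the dotted line marks 1 TPM. NEUROD1 stands at 158 TPM in shGFP, and POU2F3 lies at the left edge.

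In the MYC family, which drives growth in subsets of this cancer, MYCL and MYC were both expressed and MYCN was not seen. MYCL had 52.4 TPM in shGFP, 64.9 in sh490 and 53.1 in sh1362, MYC 46.4 TPM in shGFP, 67.4 in sh490 and 74.8 in sh1362 and MYCN 0 counts in all 3 libraries, which allows up to 0.897 TPM in shGFP. RB1, a tumour suppressor commonly lost in small cell lung cancer, had 28.01 TPM in shGFP, 61.9 in sh490 and 47.3 in sh1362. A transcript level says nothing of whether the protein works. RB1 was lowest in shGFP, with a 2.21-fold range. CCND2 was the highest cyclin D at 483 TPM in shGFP, 317 in sh490 and 178 in sh1362, above CCND1 at 97.3 TPM and CCND3 at 36.00. CDKN2A, which encodes p16 and ARF, had 8.85 TPM. SLFN11, linked to sensitivity to DNA-damaging drugs, was expressed at 38.7 TPM in shGFP, 36.02 in sh490 and 21.1 in sh1362, and MGMT, which removes alkyl groups from guanine, had 0 counts in all 3 libraries. Of the 35 genes of this list 33 were expressed.

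Hormone receptors were mostly silent. Of 70 peptide hormone receptors and their partners 22 were expressed in shGFP, 31.4%, 16 of them in all 3 libraries, and 28 had 0 counts in all 3. The highest were CALCRL, the receptor that forms the CGRP or adrenomedullin receptor with a RAMP partner, at 104 TPM in shGFP, 72.1 in sh490 and 70.9 in sh1362, and its partner RAMP1 at 53.9 TPM in shGFP, 77.04 in sh490 and 33.7 in sh1362. The urocortin receptor CRHR2 had 27.5 TPM in shGFP, 10.9 in sh490 and 11.8 in sh1362, the bradykinin receptor BDKRB2 24.6 TPM in shGFP, 15.1 in sh490 and 17.98 in sh1362 and the oxytocin receptor OXTR 19.6 TPM in shGFP, 10.98 in sh490 and 10.6 in sh1362. These 5 genes were expressed in every library.

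Ligands and receptors were then set side by side, for pairs chosen after the values were seen. CALCA and CALCB, at 10484 and 51.6 TPM, are ligand genes of the CALCRL and RAMP1 receptor, both parts of which were expressed, while the calcitonin receptor CALCR had 0, 6 and 18 counts in shGFP, sh490 and sh1362. GRP and NMB were expressed, while the receptor GRPR had 0, 0 and 0 counts in shGFP, sh490 and sh1362. The other receptor, NMBR, had 2, 3 and 5 counts, or 0.993 TPM in shGFP, just under the threshold of 1 TPM. For somatostatin, SSTR1 was at 14.1 TPM in shGFP, 9.50 in sh490 and 15.9 in sh1362 and SSTR2, the target of somatostatin imaging, at 1.99 TPM in shGFP, 1.75 in sh490 and 1.72 in sh1362. SSTR3, SSTR4 and SSTR5 had 0 counts in shGFP. PACAP, from ADCYAP1, had no read of its main receptor ADCYAP1R1 in shGFP and 9, 22 and 24 counts of VIPR1 in shGFP, sh490 and sh1362. NTS faced 0 counts of NTSR1 in shGFP. PENK, the enkephalin precursor, was at 29.1 TPM and the delta opioid receptor OPRD1 at 12.9. GAL, the galanin precursor, was at 71.00 TPM and GALR2 at 1.71, with 0 counts of GALR1 and GALR3 in shGFP. AVPR1A and AVPR1B, receptors of vasopressin, had 9.31 and 6.80 TPM although AVP had no read in shGFP. A transcript level in 1 culture does not measure signalling.

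Receptors of small transmitters were expressed at modest levels, with 34 of 88 expressed in shGFP, 38.6%, and none at 100 TPM. The GABA-A subunit GABRA2 was highest at 47.1 TPM in shGFP, 38.6 in sh490 and 28.8 in sh1362, followed by CHRNB1 at 30.9, the glycine receptor subunit GLRB at 26.1 and CHRNB2 at 21.8 TPM. Of the nicotinic subunits tied to smoking and lung cancer risk, CHRNA3 had 12.3 TPM in shGFP, 6.60 in sh490 and 12.9 in sh1362 and CHRNA5 9.50 TPM in shGFP, 5.01 in sh490 and 4.53 in sh1362, while CHRNB4 had 2, 8 and 7 counts in shGFP, sh490 and sh1362. CHRNA7, which forms a receptor on its own, had 0, 0 and 0 counts. The dopamine receptor DRD2 had 14.6 TPM in shGFP, 5.48 in sh490 and 10.5 in sh1362.

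Tyrosine kinases differed widely in level. Of 90 such kinases 56 were expressed in shGFP, 62.2%, near the 65.4% of all protein-coding genes, 52 of them in all 3 libraries, and 2 reached 100 TPM: YES1 and RET. YES1 had 225 TPM in shGFP (213 to 237), the highest of all tyrosine kinases there, and its level in the other libraries is the target of their hairpins. RET, the GDNF-family receptor, had 950, 1893 and 3490 counts in shGFP, sh490 and sh1362, or 108 TPM in shGFP, 135 in sh490 and 245 in sh1362. It was lowest in shGFP. FGFR1 had 86.1 TPM in shGFP, 56.9 in sh490 and 42.4 in sh1362 and the HGF receptor MET 85.5 TPM in shGFP, 114 in sh490 and 149.7 in sh1362. The intervals of FGFR1 (81.9 to 90.6) and MET (79.7 to 91.7) in shGFP overlap, so their order is not known. HGF, the ligand of MET, was expressed at 39.1 TPM in shGFP, 22.9 in sh490 and 28.7 in sh1362.

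ERBB3 at 67.1 TPM, the collagen receptor DDR1 at 66.9 and LMTK2 at 37.8 followed. EGFR had 15.4 TPM in shGFP, 9.95 in sh490 and 7.63 in sh1362, ERBB2 16.3 TPM in shGFP, 11.6 in sh490 and 8.04 in sh1362 and IGF1R 9.03 TPM in shGFP, 11.4 in sh490 and 6.23 in sh1362. KIT, often expressed in small cell lung cancer, had 63, 211 and 57 counts in shGFP, sh490 and sh1362, or 8.86 TPM in shGFP, 18.6 in sh490 and 4.94 in sh1362, and its ligand gene KITLG 10.5 TPM in shGFP, 14.1 in sh490 and 9.25 in sh1362. AXL had 0 counts in all 3 libraries, which allows up to 0.457 TPM in shGFP, and PDGFRB 0, 0 and 1 counts. ALK had 0 counts in shGFP, DDR2 5, 5 and 14 counts in shGFP, sh490 and sh1362 and CSF1R 10, 2 and 4. EPHA2 had 7.37 TPM in shGFP, 2.96 in sh490 and 1.05 in sh1362, a 6.56-fold range. Of the 35 expressed receptor tyrosine kinases 19 stayed within 2-fold, and 23 of the 35 reached 5 TPM. Over all expressed protein-coding genes 81.2% stayed within 2-fold, and 54.2% of those at 1 to 5 TPM.

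Of 32 cytoplasmic tyrosine kinases 21 were expressed in shGFP and the same number in all 3 libraries. JAK1 was at 99.7 TPM in shGFP, 106 in sh490 and 108 in sh1362, PTK2, which encodes focal adhesion kinase, at 92.9 TPM in shGFP, 91.1 in sh490 and 86.00 in sh1362, and ABL1 at 48.5 TPM in shGFP, 48.96 in sh490 and 45.7 in sh1362. These 3 hardly moved. SYK, best known from blood cells, had 74.5 TPM in shGFP, 84.5 in sh490 and 77.2 in sh1362, similar in every library. FRK had 64.4 TPM in shGFP, 40.96 in sh490 and 30.1 in sh1362 and LYN 55.2 TPM in shGFP, 43.4 in sh490 and 32.96 in sh1362. SRC, FYN and the Src inhibitor kinase CSK were lower, at 17.5, 22.1 and 14.7 TPM in shGFP, and LCK at 4.92. The leukocyte kinases BTK and ZAP70 had 1 and 0 counts in shGFP. Of the 21 expressed members 18 stayed within 2-fold, and 1 of the 3 that did not was YES1.

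**Figure D4:**
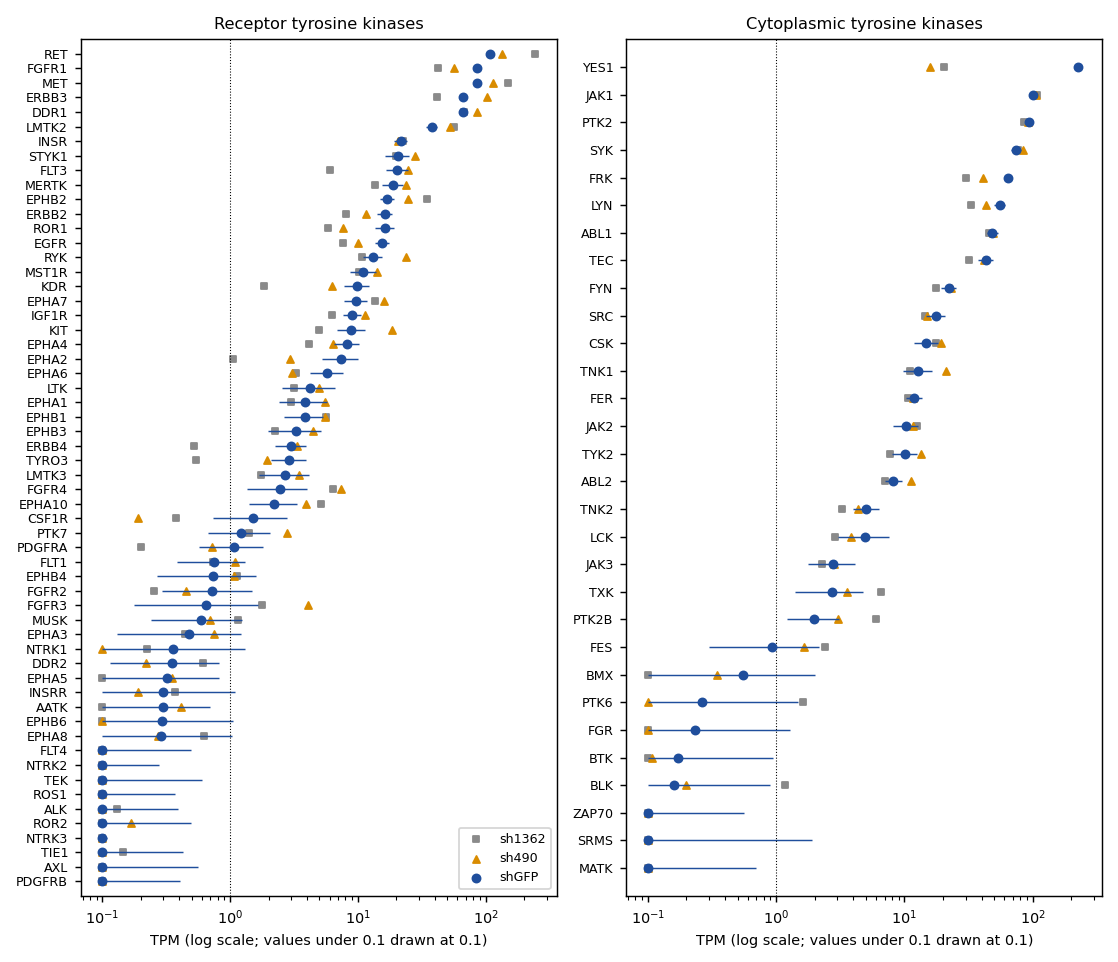
TPM on a log scale of receptor (left) and cytoplasmic (right) tyrosine kinases. Circles are shGFP with exact 95% counting intervals, triangles sh490 and squares sh1362, and the dotted line marks 1 TPM. YES1 is at 225 TPM in shGFP and 15.7 and 20.4 in the libraries with YES1 hairpins, while the 3 libraries nearly coincide for JAK1 and for PTK2.

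Kinases of division and DNA damage control were all expressed in shGFP, 30 of 30, with a median of 76.7 TPM. CDK1, which drives entry into mitosis, had 323 TPM in shGFP, 216 in sh490 and 132 in sh1362, PRKDC, the DNA-dependent protein kinase, 304 TPM in shGFP, 295 in sh490 and 206 in sh1362, and the mitotic kinases AURKB and AURKA 244 TPM in shGFP, 222 in sh490 and 84.4 in sh1362 and 209.7 TPM in shGFP, 194 in sh490 and 110.3 in sh1362. CHEK1 had 108 TPM in shGFP, 56.4 in sh490 and 24.04 in sh1362 and WEE1 34.6 TPM in shGFP, 23.3 in sh490 and 8.40 in sh1362. Their levels were not stable: 20 of the 30 left the 2-fold range, and all 20 were lowest in sh1362. Over all protein-coding genes at 20 to 100 TPM, 90.8% stayed within that range. The shGFP values of these kinases therefore describe this library rather than a level shared by the 3. ATR, CDK7 and CDK4, at 12.3, 45.7 and 111 TPM, were among the 10 that stayed within it.

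Of 63 signalling serine/threonine and lipid kinases 56 were expressed in shGFP and 51 of these stayed within 2-fold. PAK1 was highest at 249 TPM in shGFP, 208 in sh490 and 162 in sh1362, then RPS6KA3, which encodes the ERK target RSK2, at 223 TPM in shGFP, 253 in sh490 and 152 in sh1362. MTOR had 73.8 TPM, TBK1 82.98, PIK3CA 24.1 and DCLK1 10.7. PIK3CG and PRKCQ, lipid and protein kinases of leukocytes, had 0 counts in all 3 libraries. RIPK3, needed for necroptosis, was expressed at 6.54 TPM in shGFP, 9.58 in sh490 and 6.28 in sh1362.

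Nuclear receptors were on in 34 of 48 cases, 70.8%, near the 65.4% of all protein-coding genes. The glucocorticoid receptor NR3C1 was the highest at 110.5 TPM in shGFP, 47.8 in sh490 and 40.5 in sh1362, and its level in shGFP lay above both other libraries. NR0B2 had 56.4 TPM in shGFP, 69.1 in sh490 and 111 in sh1362, HNF4G 42.9 TPM in shGFP, 45.6 in sh490 and 38.4 in sh1362 and NR0B1, known from endocrine tissue, 36.5 TPM in shGFP, 32.97 in sh490 and 57.6 in sh1362. The sex steroid receptors ESR1 and PGR were low, with 11, 10 and 13 counts for ESR1 and 23, 16 and 14 for PGR in shGFP, sh490 and sh1362.

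In the Notch pathway, which opposes the neuroendocrine fate in the airway, the ligand genes DLL1, DLL3 and DLL4 were expressed above the receptor genes NOTCH1 and NOTCH2. DLL3, an inhibitory ligand and drug target on this cancer, had 42.4 TPM in shGFP, 49.7 in sh490 and 43.7 in sh1362, DLL1 32.98 TPM in shGFP, 35.5 in sh490 and 37.8 in sh1362 and DLL4 30.8 TPM in shGFP, 42.1 in sh490 and 51.2 in sh1362, with intervals in shGFP of 35.7 to 50.01, 28.1 to 38.5 and 26.5 to 35.5. NOTCH2 had 7.18 TPM in shGFP, 7.14 in sh490 and 2.11 in sh1362 and NOTCH1 1.32 TPM in shGFP, 2.21 in sh490 and 0.544 in sh1362. The target HES1 was at 24.7 TPM in shGFP, 36.00 in sh490 and 13.1 in sh1362. DLK1 had 0 counts in shGFP. Of the 34 genes 27 were expressed.

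Surface antigens that have been targeted in small cell cancer were expressed in 34 of 42 cases, 81.0%. EPCAM, the epithelial adhesion molecule, was highest and stable at 1156 TPM in shGFP, 1219.7 in sh490 and 1166 in sh1362. CD24 had 269 TPM and CLDN7 266. CD276, known as B7-H3, had 22.97 TPM in shGFP, 40.7 in sh490 and 27.7 in sh1362 and SEZ6 3.94 TPM in shGFP, 2.28 in sh490 and 2.53 in sh1362. B4GALNT1, the enzyme that makes the ganglioside GM2, had 10.4 TPM in shGFP, 9.71 in sh490 and 7.46 in sh1362. CEACAM5 had 28, 257 and 130 counts in shGFP, sh490 and sh1362, and its 6.54 TPM in shGFP was the lowest of the 3 libraries, a 5.77-fold range. MSLN and CLDN6 had 0 counts in shGFP.

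Class I antigen presentation genes were expressed. HLA-C had 383 TPM in shGFP, 392 in sh490 and 335 in sh1362, HLA-B 329 TPM in shGFP, 341 in sh490 and 241 in sh1362 and B2M, their common light chain, 461 TPM in shGFP, 449.6 in sh490 and 359 in sh1362. The HLA genes resemble each other and vary between people, so their counts are uncertain. The peptide transporter TAP1 had 15.5 TPM and NLRC5, the class I activator, 7.26. For class II, HLA-DRA had 4, 0 and 0 counts in shGFP, sh490 and sh1362 and CIITA, the class II activator, 7, 6 and 10. CD74 had 12.6 TPM in shGFP, 7.39 in sh490 and 7.17 in sh1362, highest in shGFP. In all 26 of 33 genes of this list were expressed, 78.8%. The stress ligands of natural killer cells MICA and MICB had 117 TPM in shGFP, 99.01 in sh490 and 62.1 in sh1362 and 98.4 TPM in shGFP, 67.2 in sh490 and 43.1 in sh1362, and ULBP2 67.97 TPM in shGFP, 62.1 in sh490 and 43.01 in sh1362. CD274, which encodes PD-L1, had 9.71 TPM in shGFP, 6.93 in sh490 and 5.17 in sh1362, and PDCD1LG2 0 counts in shGFP. Of the 35 ligands of T and NK cell receptors 19 were expressed.

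Genes that sense foreign nucleic acid were unevenly present. CGAS, the sensor of cytosolic DNA, had 38.8 TPM in shGFP, 35.8 in sh490 and 21.7 in sh1362, but STING1, which relays its signal, had 0, 8 and 1 counts in shGFP, sh490 and sh1362, which for shGFP allows up to 0.489 TPM. The RNA sensor IFIH1 had 41.9 TPM in shGFP, 43.7 in sh490 and 56.6 in sh1362 and its adaptor MAVS 62.4 TPM in shGFP, 73.8 in sh490 and 55.1 in sh1362. ISG15 was at 23.5 TPM in shGFP, 24.3 in sh490 and 28.9 in sh1362, while IFNB1 and IFNG had 0 counts in shGFP. In all 25 of the 39 genes were expressed.

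Of 93 chemokines, cytokines and growth factors 46 were expressed in shGFP, 49.5%, against 65.4% of all protein-coding genes. CXCL8, a neutrophil attractant, was highest at 705 TPM in shGFP, 333 in sh490 and 178 in sh1362, and its shGFP level lay above both other libraries, a 3.70-fold range. VEGFB had 159 TPM and VEGFA 26.9, GDF15 126 and AREG, an EGFR ligand, 68.1. INHBA, an activin subunit, had 18.6 TPM in shGFP, 2.31 in sh490 and 4.19 in sh1362, the widest range of the list at 8.03-fold. IL6 and SHH had 0 counts in shGFP. Of the 46 expressed members 23 stayed within 2-fold, and 30 of the 46 reached 5 TPM. Over all expressed protein-coding genes 81.2% stayed within 2-fold, and 54.2% of those at 1 to 5 TPM. MIF also had 0 counts in all 3 libraries, but 5.89% of its exonic bases are its own and the rest overlap other genes, where reads are left out, so its 0 does not show absence. The same held for TREX1, which shares all its exonic bases. Of 252 list genes at 0 in all libraries 10 had less than 50% of their exonic bases to themselves.

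Genes of cell death, cell shape and neuronal identity filled in the picture. BCL2, the survival factor that is high in many small cell cancers, had 97.5 TPM in shGFP, 75.5 in sh490 and 51.7 in sh1362, MCL1 247 TPM in shGFP, 260.3 in sh490 and 176 in sh1362, BCL2L1 46.3 TPM in shGFP, 63.8 in sh490 and 45.3 in sh1362 and the BH3-only gene PMAIP1 159 TPM in shGFP, 251 in sh490 and 252 in sh1362. CASP8 was at 4.21 TPM, FAS at 3.51, and CASP1 had 0 counts in shGFP. Of 39 apoptosis genes 34 were expressed. Epithelial genes were expressed in 23 of 30 cases, with 11 at 100 TPM or more and a median of 43.9 TPM. KRT18 had 528 TPM in shGFP, 585 in sh490 and 709 in sh1362, KRT7 368 TPM in shGFP, 468 in sh490 and 519 in sh1362 and CDH1, which encodes E-cadherin, 111 TPM in shGFP, 142 in sh490 and 239 in sh1362, while the basal keratins KRT5 and KRT14 had 0 counts in shGFP. Mesenchymal genes were expressed in 14 of 30 cases, with a median of 0.604 TPM and none at 100 TPM. VIM, which encodes vimentin, had 15, 15 and 14 counts in shGFP, sh490 and sh1362 (2.27 TPM in shGFP), CD44 2, 4 and 6 and CAV1 2, 2 and 4. CDH2 at 27.2 and TWIST1 at 33.3 TPM were the highest of them.

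Of 49 neuron and axon genes 29 were expressed, 59.2%, against 65.4% of all protein-coding genes. APP had 438 TPM, STMN1 309, the adhesion molecule CNTN1 209.5 and GAD1, which makes GABA, 41.8 TPM in shGFP, 42.7 in sh490 and 35.8 in sh1362. TUBB3 and DCX, markers of young neurons, had 8, 3 and 13 and 1, 0 and 1 counts, and CHAT and SLC6A4 had 0 in shGFP. Voltage-gated and sensory channels held some of the more abundant membrane genes. The sodium channel SCN3A had 395 TPM in shGFP, 420.4 in sh490 and 485 in sh1362, with an interval of 384 to 405 in shGFP, and the cold sensor TRPM8 187 TPM in shGFP, 287 in sh490 and 167 in sh1362. TRPA1, the irritant sensor, had 50.5 TPM in shGFP, 14.6 in sh490 and 13.5 in sh1362, highest in shGFP. The calcium channels CACNA1A and CACNA1B, the first a target of antibodies in the Lambert-Eaton syndrome of this cancer, had 3.32 TPM in shGFP, 6.52 in sh490 and 10.5 in sh1362 and 3.55 TPM in shGFP, 3.47 in sh490 and 4.53 in sh1362. Of the 52 channels 31 were expressed.

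Chromatin regulators were expressed in 35 of 37 cases, with 32 of the 35 within 2-fold. The list had a median of 25.5 TPM, and 90.8% of all protein-coding genes at 20 to 100 TPM stayed within that range. HMGB3 had 977 TPM in shGFP, 817 in sh490 and 257 in sh1362, HDAC1 307 TPM in shGFP, 363 in sh490 and 335 in sh1362, the histone demethylase KDM1A 150.3 TPM in shGFP, 182 in sh490 and 144 in sh1362 and EZH2, the H3K27 methyltransferase, 66.6 TPM in shGFP, 75.6 in sh490 and 53.2 in sh1362. HMGB3 was thus far lower in sh1362. Housekeeping genes were expressed in 16 of 16 cases, 15 of them within 2-fold. ACTB had 1067 TPM in shGFP, 1104 in sh490 and 539 in sh1362 and TBP 27.3 TPM in shGFP, 32.6 in sh490 and 24.4 in sh1362.

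Lists of other cell types had a smaller share of genes expressed in shGFP than the 65.4% of all protein-coding genes. The alveolar and airway list had 9 of 21 genes expressed, among them the lamellar body transporter ABCA3 at 30.97 TPM in shGFP, 35.4 in sh490 and 42.05 in sh1362, FOXJ1 of ciliated cells at 25.1 TPM in shGFP, 30.9 in sh490 and 36.2 in sh1362 and the surfactant gene SFTPB at 6.28 TPM in shGFP, 8.96 in sh490 and 12.8 in sh1362, while SFTPC, NAPSA, SCGB1A1 and MUC5AC had 0 counts in shGFP. The surfactant genes SFTPA2 and SFTPD were at 21.5 and 14.2 TPM in shGFP. Hepatocyte genes were expressed in 5 of 15 cases in shGFP, 7 in sh490 and 9 in sh1362. In shGFP SERPINA1 was at 11.6, CYP2E1 at 4.23, FGB at 3.18 and TTR at 2.94 TPM, while ALB, APOA1 and AFP had 0 counts. Of 12 muscle genes 2, of 7 melanocyte genes 3, of 10 glial genes 5 and of 10 germ and pluripotent cell genes 2 were expressed, with 0 counts in shGFP for MYOD1, TYR, SOX10, S100B, POU5F1 and NANOG. The melanocyte genes MITF, PMEL and MLANA were at 6.43, 6.42 and 3.13 TPM in shGFP. MBP, on the glial list, had 34.3 TPM in shGFP, 33.4 in sh490 and 28.4 in sh1362. Of 15 fibroblast and endothelial markers 4 were expressed, and COL1A2, COL3A1, DCN and FAP had 0 counts in shGFP. COL1A1 was at 2.79 and PECAM1 at 1.01 TPM there, and CDH5 at 0.515. The summed level of these markers was 29.8, 23.1 and 12.8 CPM in shGFP, sh490 and sh1362. In the adipocyte list 3 of 7 were expressed, led by CIDEC at 20.3 TPM in shGFP, 5.10 in sh490 and 0.501 in sh1362. Its range of CPM, with low counts raised to the floor, was 25.2-fold.

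Globin transcripts set shGFP apart from both other libraries. HBB had 3124, 136 and 140 counts in shGFP, sh490 and sh1362, HBA1 208, 4 and 1 and HBA2 208, 7 and 9. These 3 globins had reads in every library, and the summed level of the globin list was 722.8 CPM in shGFP, 19.1 in sh490 and 20.3 in sh1362. The fetal globins HBG1 and HBG2 had 0 counts in shGFP. HBA1 and HBA2 are near-identical, so their counts are uncertain. Red cell genes other than globins were mostly at or near 0. ALAS2 had 13, 1 and 1 counts and SLC4A1 2, 0 and 0, and AHSP and CA1 had 0 in all 3 libraries. BPGM, expressed at 83.2 TPM in shGFP, 93.8 in sh490 and 31.4 in sh1362, is also found outside red cells. With BPGM included, the red cell genes other than globins summed to 73.1, 83.0 and 48.9 CPM in shGFP, sh490 and sh1362.

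Leukocyte markers were sparse in all 3 libraries. Of 36 markers 10 were expressed in shGFP, 27.8%, 2 in all 3 libraries, and 13 had 0 counts in all 3. Their summed level was 35.9, 20.4 and 21.2 CPM in shGFP, sh490 and sh1362, and without CORO1A, which the line expressed in every library at 12.8 TPM in shGFP, 12.2 in sh490 and 9.01 in sh1362, 19.6, 4.88 and 8.89 CPM. Leaving CORO1A out was decided after its values were seen. S100A9, a neutrophil protein, had 20, 1 and 0 counts and S100A8 5, 0 and 0. PTPRC, which encodes the pan-leukocyte protein CD45, had 2, 0 and 3, ITGB2 2, 0 and 0, LYZ 3, 1 and 9 and LAPTM5 0, 0 and 2, and CD3E was at 0 in all 3. Markers with reads in shGFP and none in the others were CD3G, NKG7, ITGB2, S100A8, TYROBP and LST1, 6 of the 36. The share of all genes with this pattern was not computed. The reverse was also seen: 16 markers had 0 counts in shGFP and 13 in all 3 libraries, so some, such as LAPTM5, had reads in a hairpin library alone. The platelet gene PPBP had 3, 0 and 0 counts and PF4 1, 2 and 2. The summed level of the platelet list was lowest in shGFP, at 1.84, 2.57 and 3.37 CPM in shGFP, sh490 and sh1362. No gene had 8 or more counts in shGFP and 0 in both other libraries, while 14 genes were so confined to sh490 and 26 to sh1362, both deeper. The origin of the globin and leukocyte reads, and their part in other levels given here, was not tested. Some genes that leukocytes also express, CSF1R, HLA-DRA, CD74 and CXCL8, had higher levels in shGFP than in both other libraries. Others did not: SYK was similar in every library, and LYZ and LAPTM5 were highest in sh1362. CD74 and CXCL8 were expressed in every library.

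**Figure D5:**
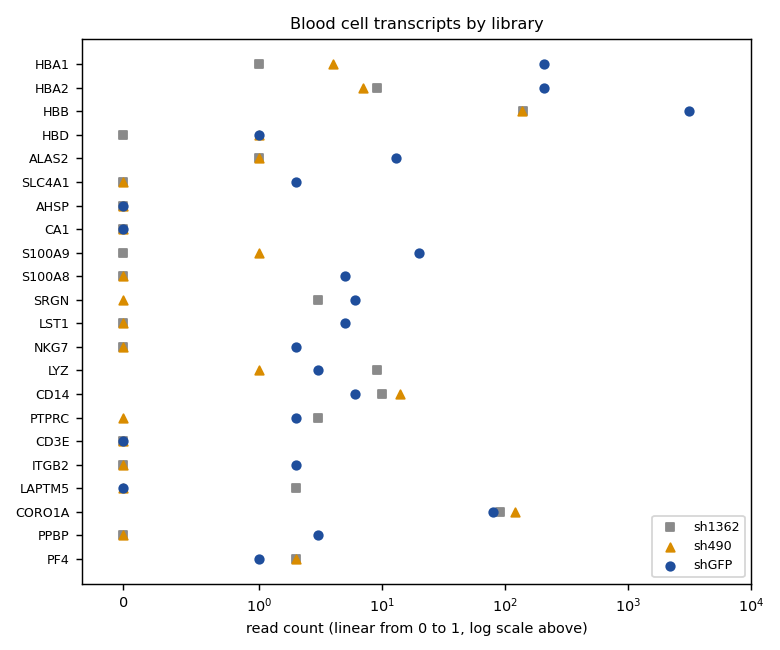
Read counts of globins, red cell genes, leukocyte markers and platelet genes in the 3 libraries, on an axis that is linear from 0 to 1 and logarithmic above. Circles are shGFP, triangles sh490 and squares sh1362, and single counts carry no replicate error. HBB lies at 3124 counts in shGFP against 136 and 140, while CORO1A is alike in all 3.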

How the data were processed

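RNA of 3 libraries was sequenced, 1 each of shGFP, sh490 and sh1362. Each deposited table holds unnormalised read counts. The authors made them with featureCounts 1.6.0 at default options on exons of GENCODE release 32, per the file headers, which ignores strand and drops multiply aligned reads and those over more than 1 gene. The submitters' processing notes also name STAR 2.6.1c, FastQC 0.11.8 and the build GRCh38. The exonic length per gene in the deposited tables merges all transcripts of a gene, per the file headers, so the TPM of a gene with long rare exons is understated.

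Of 60609 genes 60295 were matched to a symbol, and biotypes came from GENCODE 29 for 58502. CPM and TPM were computed with Python 3.11.15 and pandas 2.3.3, and exact Poisson 95% intervals with scipy 1.17.1. A gene was expressed at 1 TPM and stable when its highest CPM was at most 2 times its lowest, with counts under 3 set to 3. Median-of-ratios scaling, other thresholds and lengths, and another denominator were tried. Levels, intervals and ranges were tested on simulated data. No test was possible with 1 library per hairpin. The text names the 20 highest nuclear protein-coding genes and key members marked in each of 39 lists. It also names the highest and the least stable of each list, members at 0, and the highest of families and of long non-coding RNAs. Any other gene was chosen after its values were seen. Lists hold 1324 genes and, like the choice of library, were made with earlier results of these data known. Some genes of the lists are counted in them but not reported here by name.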

Additional observations from a re-analysis of the deposited data

How the results depend on the processing

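The number of expressed protein-coding genes, 13014, ran from 10498 at a threshold of 5 TPM to 13790 at 0.5 TPM, and was 12975 in sh490, 12870 in sh1362 and 12231 in all 3 libraries at once, a setting chosen after seeing the data. The number of stable genes, 10561, was 10597 with median-of-ratios scaling, 7286 within 1.5-fold and 12216 within 3-fold. Over the lists, 784 of 1324 genes were expressed, between 596 and 853 across the alternatives. At 5 TPM the count of 15 of the 39 lists moved by over 1.5 times, with sh490 3 and with sh1362 6. YES1 had 299 CPM in shGFP, 20.9 in sh490 and 29.1 in sh1362. Of 500 named genes 214 kept a TPM inside the shGFP counting interval in sh490 and 154 in sh1362. Named genes include the least stable of each list over these libraries, and the highest. These counts therefore do not stand for all genes, and the counting error of the other library was not allowed for. Without bases shared with other genes 83 moved outside the shGFP interval. Without mitochondrial and globin genes in the denominator 300 did. No paired analysis was possible because each hairpin has 1 library. Depth limits genes near 1 TPM, where 5.47 counts stand behind a gene of median length.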

Other observations

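Cancer-testis genes, which are normally limited to germ cells, were expressed in 17 of 58 cases, 29.3%, with 33 at 0 counts in all 3 libraries. MAGEB2 was the highest at 296 TPM in shGFP, 327 in sh490 and 298 in sh1362, followed by MAGEA3 at 96.6 TPM in shGFP, 107 in sh490 and 106 in sh1362, PRAME at 66.8 TPM in shGFP, 57.1 in sh490 and 41.1 in sh1362 and CTAG2 at 25.2 TPM in shGFP, 44.00 in sh490 and 25.8 in sh1362. These 4 stayed within 2-fold over the libraries, while MAGEA4 had 2, 0 and 2 counts in shGFP, sh490 and sh1362 and CTAG1B and CT45A1 had 0 in shGFP. MAGEA3 and its close relatives share sequence, so their levels are uncertain. Of 39 HOX genes, which give cells their position along the body, 20 were expressed, and the median of the 39 was 1.13 TPM. Within 2-fold stayed 7 of the 20, against 81.2% of all expressed protein-coding genes and 54.2% of those at 1 to 5 TPM. HOXD13 had 25.9 TPM in shGFP, 27.4 in sh490 and 18.2 in sh1362, HOXA11 22.7 TPM in shGFP, 17.9 in sh490 and 13.4 in sh1362 and HOXD9 21.7 TPM in shGFP, 33.6 in sh490 and 40.7 in sh1362. Of 17 mucins 3 were expressed, led by MUC13, a membrane mucin of the gut, at 634 TPM in shGFP, 489 in sh490 and 559 in sh1362. Of 55 keratins 9 were expressed, and KRT80 had 119 TPM in shGFP, 94.7 in sh490 and 38.04 in sh1362.

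The most abundant long non-coding RNAs were LINC02417 at 679 TPM in shGFP, 451 in sh490 and 411 in sh1362 and MALAT1, a nuclear RNA of many cell types, at 588 TPM in shGFP, 518 in sh490 and 395 in sh1362. LINC02697 had 432 TPM in shGFP, 591 in sh490 and 244 in sh1362, COLCA1 268 TPM in shGFP, 288 in sh490 and 111 in sh1362, GAS5 168 TPM in shGFP, 194 in sh490 and 219 in sh1362 and NORAD 159 TPM in shGFP, 189.6 in sh490 and 219 in sh1362. Long non-coding RNAs took 1.58% of the counts of shGFP and protein-coding genes 96.8%. Strand was not used in counting, so reads of antisense genes such as COLCA1 cannot be told apart from those of overlapping partners. Of 86 cytosolic ribosomal protein genes 83 were expressed, 81 of them within 2-fold, and they took 3.26% of all TPM in shGFP.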
